A study of Mus musculus with 4 samples.

Results

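The response of control mouse skin to imiquimod was read across all measured genes by setting the control imiquimod library against the control untreated library. Per the labels, both came from back skin of CD1 mice aged 7 to 8 weeks, and the treated animals had received 1 dose of 62.5 mg of a 5% cream on the shaved back. The genotype behind the word control, the number of animals pooled, the gate of the cell sort and the time after the dose are not given in the sources used here. Each group was 1 library of sorted cells, so animal, preparation and treatment cannot be told apart, no test between groups could be run, and every difference below is one between 2 single libraries. Of 23455 barcodes in the series, 11779 cells formed the control comparison. They had at least 200 detected genes, at most 10% mitochondrial UMIs and a place in 1 of 3 compartments. Epithelial cells had more UMIs (counted RNA molecules) of Krt5, Krt14, Krt1 and Krt10 together than of Col1a1, Col1a2, Col3a1 and Dcn, and no Ptprc UMI. Fibroblasts were the reverse, also without Ptprc. Ptprc cells had at least 1 UMI of Ptprc, the leukocyte antigen CD45, whatever else they held. The libraries labelled Ovol1 null, untreated and imiquimod, were of the same strain, age and dose and are used only as a second pair that shares no library with the control pair.

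Imiquimod is an agonist of Tlr7, an endosomal receptor for single-stranded RNA that is found mainly in dendritic cells and macrophages. Tlr7 signals through Myd88 to Irf7 and NF-kappaB, and plasmacytoid dendritic cells answer it with type I interferon. Interferon binds Ifnar1 and Ifnar2 on nearly any cell, and factors that include Stat2 and Irf9 then bind a short element in promoters of antiviral genes. In mouse skin the cream is used to bring on psoriasis-like inflammation, in which type 17 cytokines act on keratinocytes.

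The untreated library held 1831 epithelial cells, 3950 fibroblasts and 373 Ptprc cells, and the imiquimod library held 2913, 2587 and 125. Median UMIs per cell were 5129 and 5485 in epithelial cells, 6345.5 and 4366 in fibroblasts and 4099 and 4534 in Ptprc cells. All value pairs below are in the order untreated, imiquimod. Levels are CPM, a gene's UMIs scaled to all UMIs of its compartment and library, ratios carry an exact 95% interval that covers counting error only, and a gene counts as measured where its UMIs in the pair sum to 50 or more. Among markers that the rule did not use, Perp, of epithelial junctions, stood at 2941 and 3192 CPM in epithelial cells and 159 and 326 CPM in fibroblasts. Lum, a matrix proteoglycan, stood at 4684 and 2699 CPM in fibroblasts and 98.9 and 116 CPM in epithelial cells. Of the Ptprc cells, 91.7% and 77.6% had at least 2 UMIs of 7 other leukocyte genes. In that compartment the 10 epithelial markers summed to 5682 and 17485 CPM and the 10 fibroblast markers to 35459 and 9944 CPM, rule genes included, and the part of these markers in the Ptprc results was not tested. The 2 control libraries shared 40 barcode sequences among kept cells.

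Short promoter windows of higher genes that hold the element bound by interferon factors are shown to give its letters, and they were chosen for holding it. All but Bst2 are among the 12 leading higher genes of a compartment. Of the leading higher genes with a promoter in the table, 6 of 10 held it in epithelial cells, 6 of 8 in fibroblasts and 4 of 9 in Ptprc cells. Of the leading lower genes 0 of 8, 0 of 7 and 1 of 9 held it, the last being Ccl1. The windows below are 89 bases of RefSeq sequence (GRCm38.p6, the build called mm10), written 5′ to 3′ on the gene's strand. Capitals mark each match to the core GAAANNGAA or its reverse complement TTCNNTTTC, and overlapping matches form 1 run. They lie at chr4:156200836-156200924 (Isg15, minus strand), chr5:120777680-120777768 (Oas3, minus strand), chr8:71537548-71537636 (Bst2, minus strand), chr19:34640765-34640853 (Ifit1, plus strand), chr19:34607783-34607871 (Ifit3b, plus strand), chr7:46715753-46715841 (Saa3, minus strand) and chr1:171018813-171018901 (Fcgr4, plus strand). All 7 windows lie upstream of the annotated start.
Isg15: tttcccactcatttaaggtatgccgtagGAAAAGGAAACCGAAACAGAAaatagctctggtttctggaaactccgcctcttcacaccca
Oas3: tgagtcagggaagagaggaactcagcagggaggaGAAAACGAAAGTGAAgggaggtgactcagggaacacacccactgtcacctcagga
Bst2: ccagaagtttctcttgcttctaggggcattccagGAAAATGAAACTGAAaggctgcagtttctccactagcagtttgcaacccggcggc
Ifit1: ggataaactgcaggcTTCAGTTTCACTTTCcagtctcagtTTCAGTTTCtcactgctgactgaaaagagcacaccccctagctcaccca
Ifit3b: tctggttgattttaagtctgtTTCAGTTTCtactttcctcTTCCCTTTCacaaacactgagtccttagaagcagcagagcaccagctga
Saa3: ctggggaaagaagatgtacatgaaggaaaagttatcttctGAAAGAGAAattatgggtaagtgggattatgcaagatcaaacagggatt
Fcgr4: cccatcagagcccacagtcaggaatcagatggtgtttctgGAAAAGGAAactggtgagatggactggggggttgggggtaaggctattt
The first 5 of these genes encode antiviral proteins, Saa3 encodes a serum amyloid and Fcgr4 an activating Fc receptor. The core was searched on both strands in the 250 bases before and 50 bases after each RefSeq start. It was present in 8.56% of all 32851 promoters. Among genes at least 4-fold higher under imiquimod, 28.7% of the 122 with a promoter held it in epithelial cells, 27.9% of 136 in fibroblasts and 22.9% of 48 in Ptprc cells. Among all measured genes the shares were 8.74%, 8.69% and 9.07%, and among genes at least 4-fold lower they were 8.11%, 7.50% and 5.80%. The palindrome TTCNNNGAA, the gamma-activated site, stood in 9.84%, 12.5% and 10.4% of the genes at least 4-fold higher and in 8.29%, 8.33% and 8.28% of measured genes. A match is a description of letters and not a binding site.

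The epithelial cells had more genes far higher than far lower under imiquimod, and the fibroblasts had more genes lower than higher. In epithelial cells 491 of 11032 measured genes (4.45%) were at least 2-fold higher and 400 (3.63%) at least 2-fold lower. Basal-type cells, with more Krt5 and Krt14 than Krt1 and Krt10 UMIs, made up 69.4% and 72.5% of the compartment. In them alone 374 of 10344 measured genes (3.62%) were at least 2-fold higher and 434 (4.20%) lower. Their median log2 ratio was -0.19, and these counts were not repeated with that median centred, so they do not settle the balance. In fibroblasts 817 of 12117 (6.74%) were higher and 1148 (9.47%) lower, and in Ptprc cells 267 of 5416 (4.93%) were higher and 366 (6.76%) lower. Past 10-fold the counts were 67 higher and 16 lower in epithelial cells, 54 and 49 in fibroblasts, and 13 and 30 in Ptprc cells. The median log2 ratio of all measured genes was -0.17, -0.04 and -0.04. Scaling that centres this median gave 591 higher and 232 lower genes in epithelial cells, a 71.8% share of higher genes in place of 55.1%, and moved the other compartments by less than 5 percentage points. The genes at the extremes are marked in the plot of all measured genes.

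**Figure D1:**
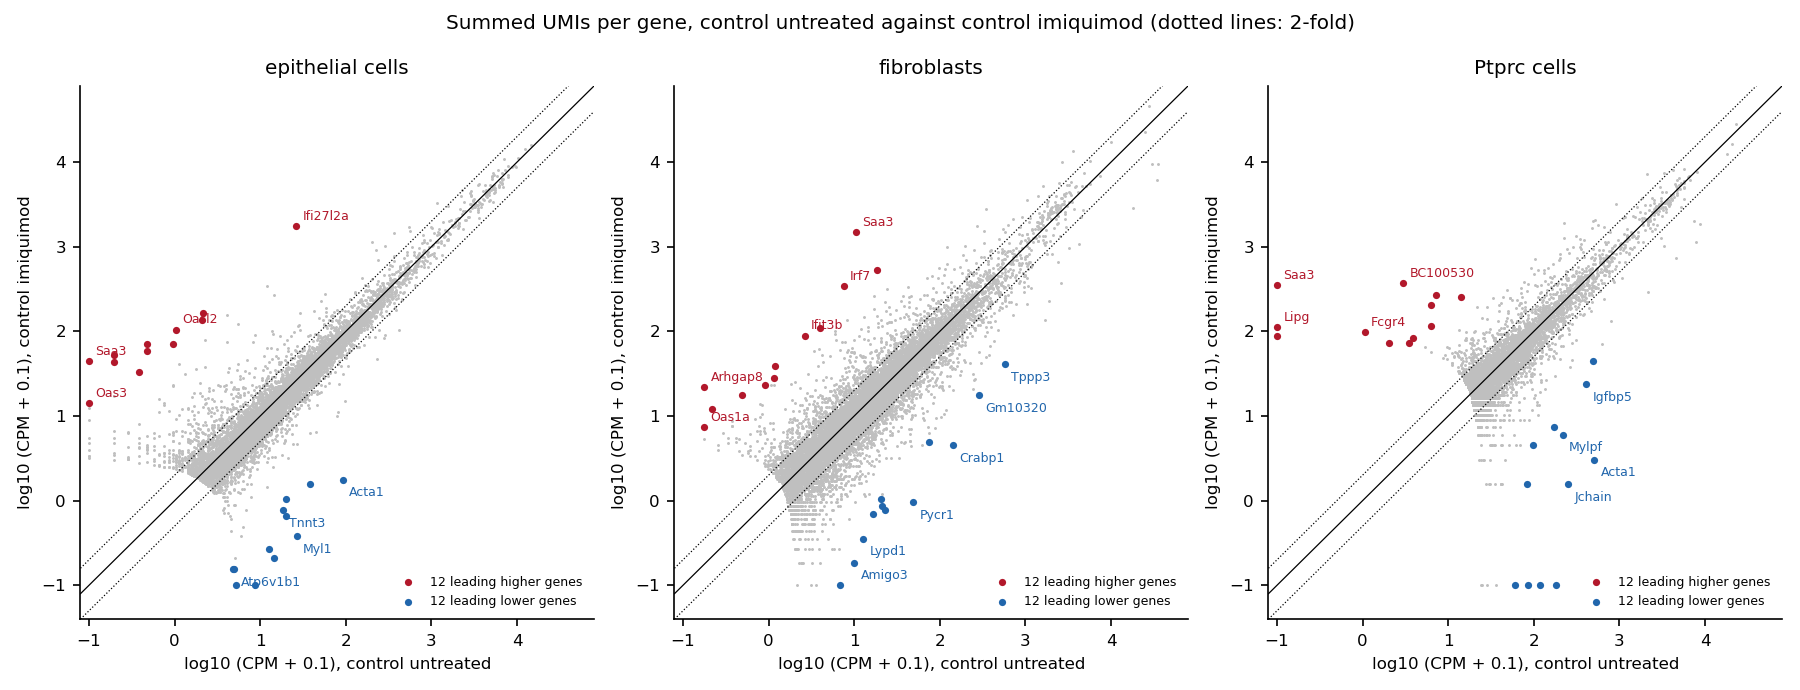
Each point is a measured gene, with its level in the control untreated library on the horizontal and in the control imiquimod library on the vertical axis, both as log10 of CPM plus 0.1. The solid line marks equal levels and the dotted lines 2-fold, red and blue points are the 12 leading genes each way, with 1148 genes at least 2-fold lower in fibroblasts. Labels are left off where they would overlap.

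Antiviral genes were among the leading higher genes of epithelial cells. Of 36 listed antiviral effectors 29 were measured and at least 2-fold higher, with a median log2 ratio of 4.37 (4.22 with genes at 0 UMIs set to their bound). Most of them reached the minimum only through the imiquimod library, where they are high, so that count and median are partly set by the minimum. The 9 that had 50 or more UMIs in the untreated library alone were also all at least 2-fold higher, with a median of 1.78. Ifi27l2a, a small mitochondrial interferon-induced protein, stood at 26.4 and 1761 CPM (66.6-fold, 59.2 to 75.2). Oasl2, of the oligoadenylate synthase family, stood at 0.941 and 105 CPM (112-fold, 60.5 to 233). Both were scarce in the untreated library, and Isg15, Rtp4 and Ifit1 below had only 21, 9 and 4 UMIs there. Isg15, the ubiquitin-like modifier, stood at 1.98 and 137 CPM (69.5-fold, 45.4 to 112), and Bst2, the membrane tether of budding viruses, at 14.6 and 273 CPM (18.7-fold, 15.9 to 22.1). Ifit1, which binds foreign 5′ RNA ends, stood at 0.376 and 59.1 CPM (157-fold, 61.1 to 577). Rtp4, a chaperone of receptors that is also induced by interferon, stood at 0.846 and 71.6 CPM (84.6-fold, 44.4 to 185). Oas3 had 0 and 250 UMIs and was at least 49.5-fold higher against a floor of 3 counts. Apol9a and Apol9b each had 1 UMI in the untreated library and 785 and 946 in the other. Their promoter windows hold the same letters. The split of reads between the 2 genes was not checked and is uncertain. Ifitm3, already abundant, changed less, at 541 and 1723 CPM (3.19-fold, 3.10 to 3.28). The smallest log2 ratio among the measured effectors was 1.13.

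The steps that lead to these genes were measured unevenly. None of the listed type I ligands and none of Tlr7, Tlr8 and Tlr9 reached 50 UMIs in any compartment. In epithelial cells the receptor chains Ifnar1 and Ifnar2 stood at 13.6 and 13.7 CPM (1.01-fold, 0.817 to 1.24) and 9.41 and 18.5 CPM (1.96-fold, 1.57 to 2.48). Of 13 measured signalling factors, 5 were at least 2-fold higher and none lower. Of the 10 with 50 or more UMIs in the untreated library, 3 were higher. Among the 5 were Irf7, the factor that amplifies interferon genes, Irf9 and Stat2, which carry the receptor signal to the nucleus, and Usp18, which removes Isg15 from proteins and restrains the receptor. Irf7 stood at 2.16 and 79.6 CPM (36.8-fold, 24.4 to 58.3) and Irf9 at 13.9 and 92.1 CPM (6.62-fold, 5.59 to 7.88). Irf3, which is activated by phosphorylation, stood at 60.8 and 46.2 CPM (0.760-fold, 0.685 to 0.843). Of the 9 measured sensors of nucleic acids, 4 were higher, and of the 4 with 50 or more UMIs in the untreated library 1 was. The higher sensors, all of them cytosolic, were Zbp1, Dhx58, Ddx58 and Ifih1, led by Zbp1 at 1.22 and 30.9 CPM (25.2-fold, 14.6 to 47.7). Of 17 listed GTPases of the Gbp and Irg families, which attack membranes around intracellular microbes, 10 were measured, each at least 2-fold higher, but none had 50 UMIs in the untreated library, so the minimum itself favoured that result. Iigp1 stood at 0.846 and 22.6 CPM (26.7-fold, 13.9 to 58.8). Antigen presentation moved less in these cells, with 5 of 22 measured genes of MHC class I and peptide loading at least 2-fold higher and a median of 0.68. Tap1, which carries peptides to class I, stood at 66.5 and 151 CPM (2.27-fold, 2.09 to 2.47).

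Some alarmins and part of the cornified envelope were higher in epithelial cells. Of 7 measured antimicrobial and alarmin genes 5 were at least 2-fold higher. Of the 3 with 50 or more UMIs in the untreated library 1 was, with a median log2 ratio of 0.58, so that count was partly set by the minimum. S100a9 stood at 0.376 and 71.4 CPM (189.8-fold, 73.9 to 697) and its partner S100a8 at 4.04 and 154 CPM (38.1-fold, 28.2 to 52.8). Together they form calprotectin, which binds metals and calls in neutrophils. At 1000 UMIs per cell 2.64% of imiquimod epithelial cells had an S100a9 UMI, against 0 of 1831 untreated cells, which allows up to 0.164% (0.218% and 7.90% before thinning). Fibroblasts, which should lack it, had 0.618% at median depths of 4366 against 5485 UMIs. Cells with more Krt1 and Krt10 than Krt5 and Krt14, the differentiating ones, had S100a8 at 0.530 and 229 CPM, and the basal-type rest had 5.98 and 115 CPM. Defb6, a beta-defensin, stood at 1155 and 3261 CPM (2.82-fold, 2.77 to 2.88), from 345 to 4333 CPM in differentiating cells and from 1601 to 2693 CPM in basal-type cells. Of 15 measured envelope genes, 7 were at least 2-fold higher and 1, Stfa1, lower. Of the 7 envelope genes with 50 or more UMIs in the untreated library, 1 was higher and none lower. Their median log2 ratio was 0.24, so the count of higher envelope genes was partly set by the minimum. Sprr2d, a cross-linked small proline-rich protein, stood at 0.282 and 32.9 CPM (117-fold, 39.7 to 567), while the main late proteins Lor at 11 and 9.04 CPM (0.822-fold, 0.644 to 1.05) and Ivl at 9.50 and 9.38 CPM (0.987-fold, 0.767 to 1.28) stayed within 1.5-fold. Krt16 and Krt6a, keratins of stressed epidermis, stood at 8.18 and 74.0 CPM (9.04-fold, 7.28 to 11.4) and 6.21 and 21.8 CPM (3.51-fold, 2.70 to 4.62), and the third, Krt17, at 1584 and 1506 CPM (0.951-fold, 0.933 to 0.970). Krt2, a late keratin, was lower at 5.74 and 1.12 CPM (5.14-fold lower, 3.06 to 8.99).

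Of 21 measured chemokines 12 were at least 2-fold higher and none lower, and of the 8 with 50 or more UMIs in the untreated library 4 were higher. Ccl20, the ligand of Ccr6 on type 17 lymphocytes, had 143 and 1792 UMIs (7.44-fold, 6.27 to 8.88), and Ccl27a, which draws skin-homing T cells, stood at 2308 and 4725 CPM (2.05-fold, 2.02 to 2.08). Cxcl10, a classical interferon-induced ligand of Cxcr3, stood at 2.16 and 15.9 CPM (7.33-fold, 4.79 to 11.7). Ccl21a, a lymph vessel chemokine with near-identical gene copies, stood at 2.07 and 164 CPM (79.2-fold, 52.2 to 127). The 8 endothelial markers, Ccl21a among them, summed to 8.09 and 216.9 CPM in epithelial cells. Most of the imiquimod sum was thus Ccl21a itself. Of these markers 3 and 1 were at 0, and the 6 measured ones, Ccl21a included, were all at least 2-fold higher. Without cells holding Pecam1, Cdh5 or other non-epithelial markers the Ccl21a log2 ratio was 3.58 in place of 6.28. Of 20 genes of glycolysis and hypoxia 8 were higher and none lower, with a median of 0.89. Egln3, an oxygen-sensing hydroxylase, stood at 11.9 and 63.1 CPM (5.33-fold, 4.43 to 6.46), Pgk1, a glycolytic kinase, at 13.2 and 64.2 CPM (4.88-fold, 4.09 to 5.86), and Bnip3, a mitophagy receptor, at 29.1 and 104 CPM (3.57-fold, 3.16 to 4.04).

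Genes of dividing cells were lower in the epithelial cells of the imiquimod library. Of 23 genes of G2 and M phase, 15 were at least 2-fold lower and none higher, with a median log2 ratio of -1.17. Top2a, which untangles replicated DNA, stood at 57.1 and 22.4 CPM (2.54-fold lower, 2.24 to 2.89), Ube2c, a partner of the anaphase complex, at 63.5 and 24.2 CPM (2.62-fold lower, 2.32 to 2.96), and Mki67 at 27.4 and 12.1 CPM (2.27-fold lower, 1.90 to 2.72). In basal-type cells alone, which hold most of this RNA, Top2a stood at 86.2 and 32.0 CPM (2.69-fold lower, 2.36 to 3.07). The 18 measured S phase genes were closer, with 1 at least 2-fold lower and a median of -0.46. This list differed in the second pair, where the median G2 and M phase log2 ratio was 0.71, and that difference was not tested.

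Muscle genes made up most of the leading lower genes of epithelial cells. Of the 12 leading lower genes, 8 encode proteins of fast muscle (Myl1, Acta1, Pvalb, Tnni2, Tnnc2, Tnnt3, Pgam2 and Ckm), Car3 is the carbonic anhydrase of muscle and fat, and Hbb-bs is a haemoglobin chain. The 6 skeletal muscle markers summed to 181.8 and 12.6 CPM, and 10 untreated cells held 90.9% of the 1933 UMIs. Without the cells that had 10 or more such UMIs (3 untreated, 0 imiquimod), the leading lower genes were Hbb-bs, Lefty1, Atp6v1b1, Cck, Gpha2, Akr1c18, Gm10320, Tpm3-rs7, Scd3, Ifitm6, Hoxc13 and Meg3, an alternative chosen after the data had been seen. Lefty1, an inhibitor of Nodal signalling, had 54 and 0 UMIs and was at least 30.3-fold lower. Atp6v1b1, a proton pump subunit of specialised epithelia, had 52 and 1 UMIs (87.6-fold lower, 15.0 to 3527). Gpha2, a glycoprotein hormone chain, stood at 78.5 and 9.99 CPM without the muscle-bearing cells, a 7.85-fold decrease. Gm10320 and Tpm3-rs7 are copies close to other genes, so their reads are uncertain.

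Fibroblasts had the same antiviral list higher, from a summed level of 1969 CPM against 659.6 CPM in untreated epithelial cells. The 31 measured antiviral effectors were at least 2-fold higher, with a median log2 ratio of 3.05, as were the 13 measured interferon-inducible GTPases, with a median of 2.77. Of those with 50 or more UMIs in the untreated library alone, 23 of 23 effectors and 11 of 11 GTPases were at least 2-fold higher, with medians of 2.20 and 2.62. Irf7 stood at 7.40 and 339.6 CPM (45.9-fold, 39.6 to 53.3), Ifi27l2a at 18.5 and 538 CPM (29.1-fold, 26.5 to 32.0) and Bst2 at 122 and 1005 CPM (8.26-fold, 7.94 to 8.59). Ifit3b, an RNA-binding antiviral protein whose promoter window is identical to that of Ifit3, stood at 2.53 and 89.1 CPM (35.2-fold, 27.4 to 45.9). Reads of the Ifit3 pair cannot be split with certainty. Among the GTPases Iigp1 stood at 16.9 and 259.9 CPM (15.3-fold, 13.9 to 17.0), Gbp2 at 59.1 and 241 CPM (4.07-fold, 3.82 to 4.33) and Igtp at 11.2 and 88.7 CPM (7.90-fold, 6.93 to 9.04). MHC class I and peptide loading, at 12 of 22 genes and a median of 1.10, included the most abundant chain B2m at 3596 and 13449 CPM (3.74-fold, 3.71 to 3.77) and H2-D1 at 2706 and 10038 CPM (3.71-fold, 3.68 to 3.74). Socs1, which restrains cytokine receptors, was lower at 81.6 and 33.3 CPM (2.45-fold lower, 2.20 to 2.74).

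Saa3, an acute-phase apolipoprotein, was the leading gene of the fibroblasts and stood at 10.4 and 1504 CPM (144-fold, 128 to 163). Thinned to 1000 UMIs, 0.203% of untreated and 22% of imiquimod fibroblasts had an Saa3 UMI (0.608% and 34.8% unthinned), and 3.95% of imiquimod epithelial cells had one. Of 18 measured acute-phase and complement genes 16 were at least 2-fold higher, with a median of 1.95, and of the 15 with 50 or more UMIs in the untreated library 13 were. C3, the central complement component, stood at 83.1 and 321 CPM (3.87-fold, 3.67 to 4.08), C4b at 18.3 and 152 CPM (8.28-fold, 7.48 to 9.19), Cfb, which amplifies C3 cleavage, at 26.9 and 128 CPM (4.75-fold, 4.34 to 5.21), and Lcn2, which withholds bacterial iron carriers, at 8.30 and 60.9 CPM (7.34-fold, 6.29 to 8.59). Of 26 chemokines 12 were higher and 1, Ccl24, lower, and of the 21 with 50 or more untreated UMIs 7 were higher. Ccl19, a ligand of Ccr7, stood at 709 and 2156 CPM (3.04-fold, 2.98 to 3.10), and Ccl5 and Cxcl9 at 3.31 and 58.2 CPM (17.6-fold, 14.0 to 22.3) and 5.07 and 51.5 CPM (10.2-fold, 8.39 to 12.4). Arhgap8, a GTPase-activating protein in no list, had 2 and 259 UMIs (283-fold, 77.5 to 2346). Of 15 cytokines 1 was higher and 3 were lower. Il6 stood at 88.4 and 25.4 CPM (3.48-fold lower, 3.08 to 3.93). None of the 16 genes of NF-kappaB feedback was past 2-fold either way, with Nfkbia, the inhibitor, at 572 and 501 CPM.

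Saa3 and the alarmins were also set against genes that mark another compartment. In the imiquimod library Saa3 stood in epithelial cells at 2.93% of its fibroblast level, where Lum, Sparc, Mfap5, Pdgfra and Apod stood at 2.48% to 4.43%. Mgp, at only 9.18 CPM in fibroblasts, stood at 43.1%. In Ptprc cells Saa3 stood at 23.4% of the fibroblast level, and those 5 genes at 11.7% to 29.9%. Saa3 in those 2 compartments was within the range of these 5 genes, and the part of fibroblast RNA in it was not tested. S100a9 and S100a8 in imiquimod fibroblasts stood at 16.9% and 14.9% of their epithelial levels, where Perp, Sfn, Dsp and Lgals7 stood at 8.15% to 13.7%. Irf7 in epithelial cells stood at 23.5% of its fibroblast level, above those 5 genes and below Mgp.

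Collagens and the genes that process them were lower in fibroblasts. Of 16 measured collagens 11 were at least 2-fold lower and none higher, with a median log2 ratio of -1.68, and their summed level was 85965 and 19611 CPM. Col1a1 stood at 34688 and 6147 CPM (5.64-fold lower, 5.6 to 5.69), Col3a1 at 18212 and 2896 CPM (6.29-fold lower, 6.22 to 6.36) and Col5a1, which starts fibrils, at 375 and 52.6 CPM (7.14-fold lower, 6.58 to 7.76). The basement membrane chains Col4a1 and Col4a2 stood at 118 and 173 CPM (1.46-fold, 1.38 to 1.55) and 69.0 and 72.4 CPM (1.05-fold, 0.965 to 1.14), so the decrease did not cover every collagen. Col1a1, Col1a2, Col3a1 and Dcn had also drawn the line between compartments. With fibroblasts called instead from Lum, Sparc, Pdgfra and Mgp the collagen median was -1.68. Sparc, the most abundant of these 4, was itself lower at 35133 and 9404 CPM, so this call does not stand apart from the decrease. Genes that fold and cross-link collagen moved with it, 11 of 18 lower and none higher, with a median of -1.65. P4ha2, a prolyl hydroxylase, stood at 254 and 26.7 CPM (9.50-fold lower, 8.48 to 10.7), Serpinh1, the collagen chaperone, at 2632 and 375 CPM (7.01-fold lower, 6.80 to 7.23), and Creb3l1, a factor that turns on collagen secretion, at 483 and 104 CPM (4.62-fold lower, 4.36 to 4.91). Lox, which cross-links collagen and elastin, was the exception at 92.7 and 179 CPM (1.93-fold, 1.82 to 2.05). Of 23 matrix glycoproteins and proteoglycans 10 were lower, among them Fn1 at 440.0 and 133 CPM (3.31-fold lower, 3.14 to 3.49) and Eln at 648 and 221 CPM (2.93-fold lower, 2.82 to 3.06), while Dcn stood at 24737 and 22890.3 CPM (1.08-fold lower, 1.08 to 1.09). The pairs of levels are drawn in the plot of collagen genes.

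**Figure D2:**
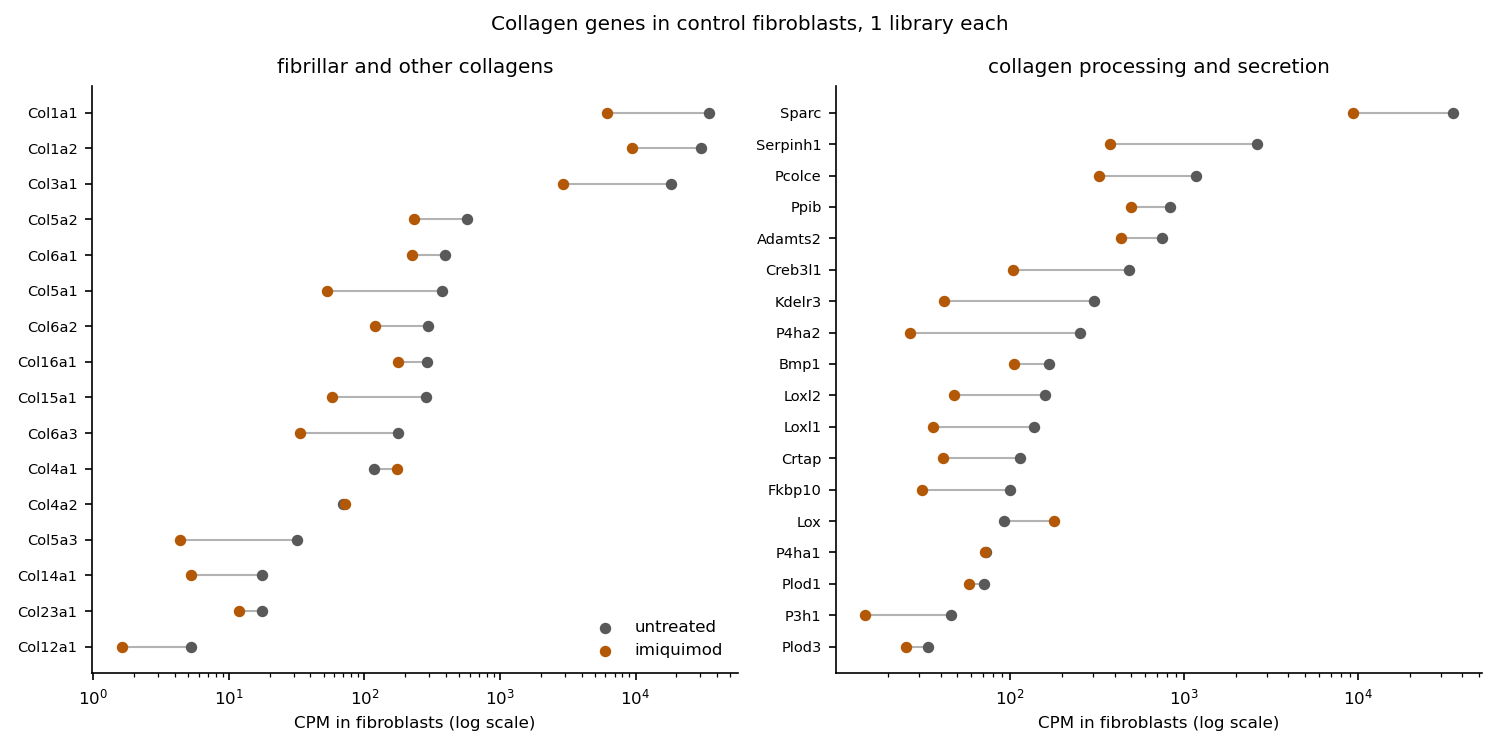
Levels of 16 collagens (left) and 18 genes of collagen processing and secretion (right) in control fibroblasts, in CPM on a log scale, with untreated in grey and imiquimod in orange and 1 library each. In both panels 11 genes are at least 2-fold lower, while Col4a1, Col4a2 and Lox lie at or to the right of their untreated level.

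Pycr1, the last enzyme of proline synthesis, led the lower side at 49.1 and 0.850 CPM (57.7-fold lower, 31.3 to 121). Proline makes up much of collagen, and the enzyme before it, Aldh18a1, stood at 44.8 and 12.2 CPM (3.66-fold lower, 3.07 to 4.38). Mthfd2, of mitochondrial folate metabolism, stood at 63.3 and 9.35 CPM (6.77-fold lower, 5.58 to 8.29), and Atf4, the factor that drives amino acid genes, at 251 and 146 CPM (1.72-fold lower, 1.63 to 1.82). In that list 8 of 19 genes were at least 2-fold lower and 1, Ddit4, an inhibitor of mTORC signalling, was higher at 115 and 545 CPM (4.76-fold, 4.55 to 4.97). Cholesterol synthesis had 8 of 16 genes lower and a median of -1.02. In epithelial cells 3 of the 16 were lower, with a median of -0.41. Immediate early and heat shock genes, which also answer to cell isolation, had medians of -0.59, -0.87 and -0.57 in epithelial cells, fibroblasts and Ptprc cells, and Atf3 in fibroblasts stood at 715 and 157 CPM (4.54-fold lower, 4.33 to 4.77).

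Other leading lower genes of fibroblasts were not matrix genes. Crabp1, a retinoic acid binder of superficial dermal fibroblasts, stood at 144 and 4.42 CPM (32.5-fold lower, 24.8 to 43.7). At 1000 UMIs per cell 4.61% and 0.348% of fibroblasts had a Crabp1 UMI (12.7% and 0.734% unthinned), and 0.0546% and 0.0687% of epithelial cells. Tppp3, a tubulin-binding protein, stood at 578 and 40.7 CPM (14.2-fold lower, 13 to 15.6), with a UMI in 35.5% and 3.63% of thinned fibroblasts (72.9% and 12.3% unthinned). Tppp3 was also lower elsewhere, with a UMI in 16.4% and 4.29% of thinned epithelial cells (42.7% and 17.7% unthinned) and 15.8% and 4.80% of thinned Ptprc cells (44.8% and 20% unthinned). Slc26a7, an anion transporter, stood at 22.9 and 0.680 CPM (33.7-fold lower, 17.0 to 78.4), Gal, a neuropeptide, at 16.4 and 0.595 CPM (27.6-fold lower, 13.3 to 69.1), and Lypd1, a modulator of acetylcholine receptors, at 12.6 and 0.255 CPM (49.5-fold lower, 16.8 to 241). Amigo3 had 255 and 1 UMIs (117-fold lower, 20.8 to 4632), Kcng2 had 527 and 11 UMIs and Lefty1 had 543 and 9 UMIs. H2-Eb1, a class II chain, stood at 75.5 and 4.85 CPM (15.6-fold lower, 12 to 20.7), while its neighbours H2-Aa and H2-Ab1 stood at 274 and 338 CPM (1.23-fold, 1.18 to 1.28) and 237 and 266 CPM (1.12-fold, 1.07 to 1.17), directions that turned in fibroblasts by other markers. In both libraries labelled Ovol1 null H2-Eb1 was low in fibroblasts, at 4.67 and 3.46 CPM, so of 4 libraries only control untreated was high. Hbb-bs had 172 and 0 UMIs in the control pair.

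Ptprc cells carried the interferon response and a change of macrophage genes. Of 14 measured antiviral effectors 11 were at least 2-fold higher and none lower, with a median of 2.14, and of the 6 with 50 or more untreated UMIs 4 were higher. Irf7 stood at 7.17 and 269.5 CPM (37.6-fold, 22.2 to 68.6) and Isg15 at 13.9 and 255 CPM (18.4-fold, 12.4 to 28.3). Fcgr1 and Fcgr4, activating receptors for antibody on monocytes and macrophages, had 4 and 50 UMIs (38.5-fold, 14.1 to 147) and 2 and 67 UMIs (103-fold, 27.5 to 870.4). The complement genes of macrophages C1qa, C1qb and C1qc stood at 76.0 and 381 CPM (5.02-fold, 4.11 to 6.16), 48.2 and 312 CPM (6.47-fold, 5.08 to 8.29) and 43.5 and 256 CPM (5.90-fold, 4.55 to 7.68). Lyz2, lysozyme, was lower at 3341 and 1033 CPM (3.24-fold lower, 2.99 to 3.50), and over the list of 19 macrophage and monocyte genes 7 were higher and 1 lower. Of the 15 such genes with 50 or more untreated UMIs 4 were higher and 1 lower, with a median of 0.07. Cxcl13, the chemokine for B cells, had 0 and 60 UMIs, at least 61.7-fold higher, and 58 of these UMIs lay in cells with more UMIs of myeloid genes than of Cd3 genes. Ccl12 stood at 33.4 and 249 CPM (7.44-fold, 5.6 to 9.98) and Ccl5 at 197 and 691 CPM (3.51-fold, 3.07 to 4.02). Within myeloid-type cells Ccl5 stood at 19.8 and 1017 CPM, and within cells with more Cd3 UMIs at 556 and 626 CPM. Cd72, an inhibitory lectin, stood at 6.21 and 206 CPM (33.2-fold, 18.8 to 63.9) and Lipg, an endothelial-type lipase, had 0 and 76 UMIs. BC100530, one of a cluster of near-identical stefins, had 6 and 250 UMIs (128-fold, 58.2 to 353), and reads within that cluster are uncertain.

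Over all Ptprc cells together, T cell genes were lower where they passed 2-fold, but within Cd3-type cells Il17a was more than 2-fold higher. Il17a, the type 17 cytokine, stood at 279 and 545 CPM (1.95-fold, 1.71 to 2.23), and in cells with more Cd3 than myeloid UMIs at 847 and 2333 CPM (2.75-fold, 2.41 to 3.14), while in myeloid-type cells its log2 ratio was -1.04. Il22, its companion on keratinocytes, was lower at 94.6 and 11.8 CPM (8.03-fold lower, 4.0 to 18.9). Of 15 measured T cell genes 5 were lower and none higher. Cd28, the costimulatory receptor, had 207 and 3 UMIs (22.4-fold lower, 7.55 to 109), and Ccl1, a chemokine of activated T cells and mast cells, had 250 and 0 UMIs, at least 27.0-fold lower. Jchain, which links antibody units in plasma cells, had 529 and 1 UMIs (172-fold lower, 30.7 to 6789). H2-Eb1 stood at 2165 and 290.2 CPM (7.46-fold lower, 6.47 to 8.65), Cd74, the class II chaperone, at 18036 and 12654 CPM (1.43-fold lower, 1.39 to 1.46) and H2-Aa at 8155 and 7745 CPM (1.05-fold lower, 1.02 to 1.09), so H2-Eb1 again stood apart from its group. Cells with more Cd3 UMIs made up 50.7% and 31.2% of the compartment (189 and 39 cells) and myeloid-type cells 40.2% and 38.4% (150 and 48 cells). Cells with equal UMIs of Cd3 and myeloid genes made up 9.12% and 30.4% (34 and 38 cells). The part of these shares in the T cell values was not tested. Among the 12 leading lower genes 7 (Acta1, Myl1, Pvalb, Mylpf, Car3, Tnnt3 and Tnnc2) are muscle genes, and 10 untreated cells held 98.4% of the muscle marker UMIs. Igfbp5, a fibroblast gene here, stood at 407 and 23.6 CPM (17.3-fold lower, 10.6 to 30.4) beside 1707 and 136 CPM in fibroblasts, and the noncoding RNA Meg3 at 497 and 44.2 CPM (11.3-fold lower, 7.84 to 16.8).

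**Figure D3:**
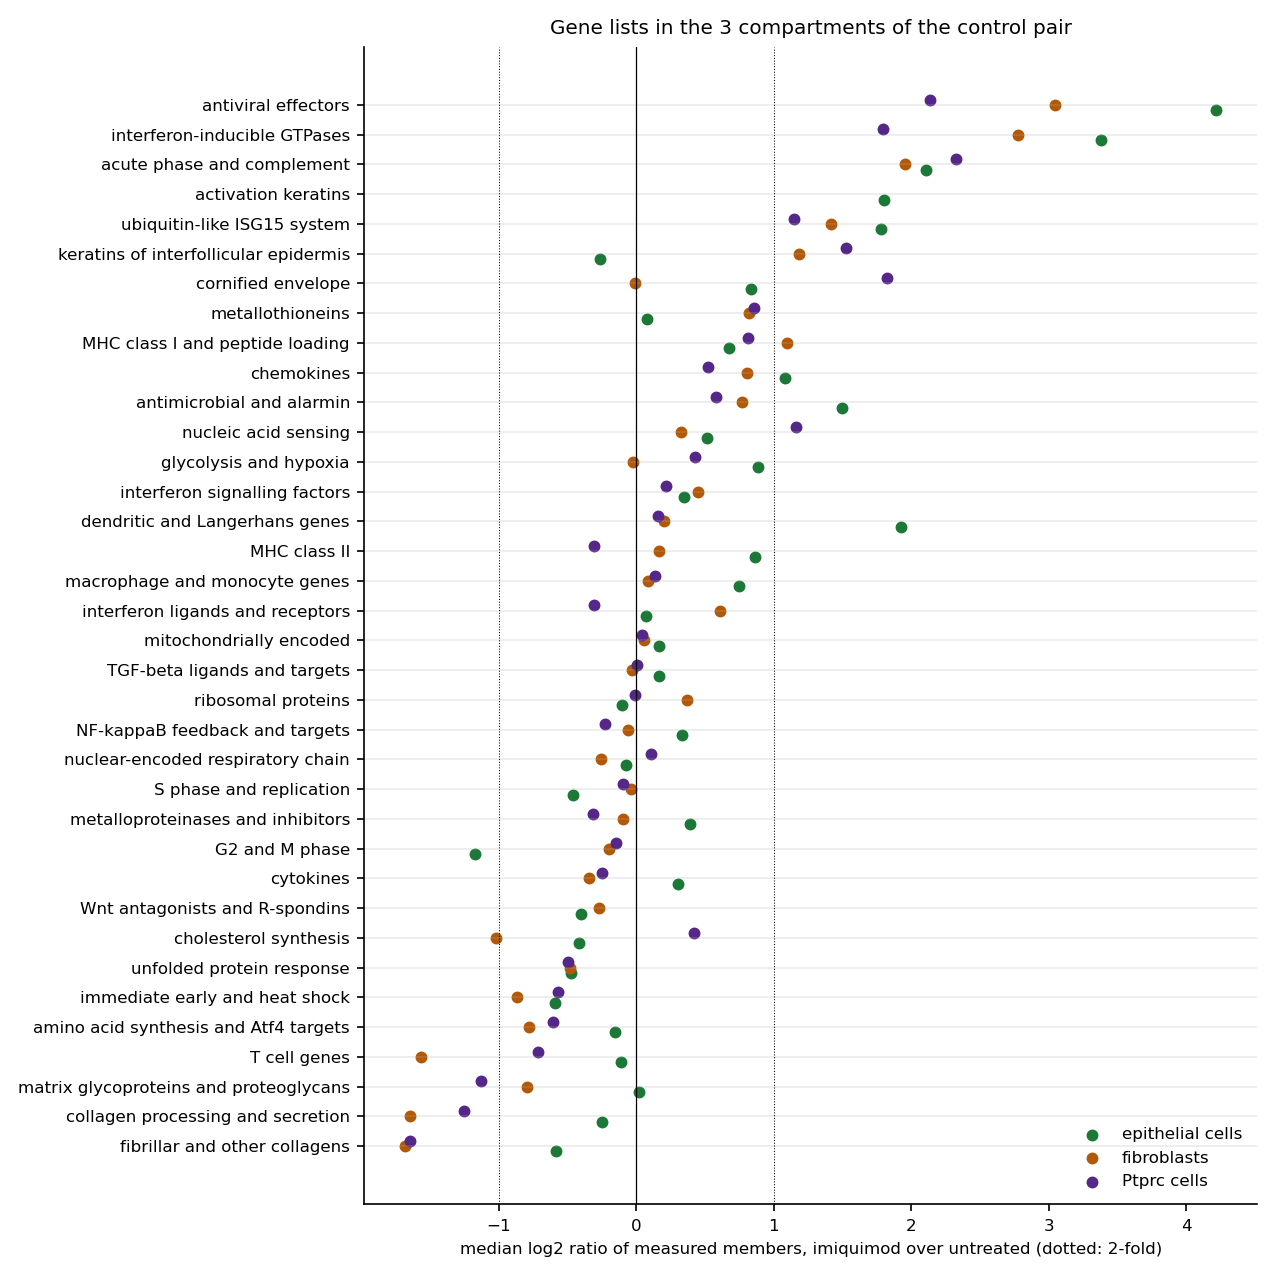
Median log2 ratio of the measured members of each gene list with at least 3 of them, imiquimod over untreated, in epithelial cells (green), fibroblasts (orange) and Ptprc cells (purple), with genes at 0 UMIs set to their bound and dotted lines at 2-fold. Among the lists drawn, antiviral effectors and interferon-inducible GTPases lie furthest right, at 4.22 and 3.38 in epithelial cells. Collagens lie furthest left in fibroblasts, at -1.68. The 2 epithelial medians are partly set by the UMI minimum, which most members of these lists reached only through the imiquimod library. In the untreated library alone 9 of 29 measured effectors reached it, with a median of 1.78, and 0 of 10 measured GTPases.

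Interferon-response UMIs were counted per cell. Each cell was thinned to 1000 UMIs, and UMIs of 41 genes of the lists of antiviral effectors and the ISG15 system were added up. The median went from 0 to 4 in epithelial cells, from 2 to 8 in fibroblasts and from 1 to 5 in Ptprc cells. At least 1 such UMI was seen in 44.6% and 94.3% of epithelial cells, 80.7% and 99.7% of fibroblasts and 63.3% and 95.2% of Ptprc cells (83.5% and 99.7%, 97.2% and 100%, 91.7% and 100% unthinned). The untreated 75th percentile was at or below the imiquimod 25th percentile in each compartment, at 1 and 2 in epithelial cells, 3 and 5 in fibroblasts and 2 and 2 in Ptprc cells. For Ifi27l2a alone the thinned share was 2.35% and 70.3% of epithelial cells, 1.62% and 29.2% of fibroblasts and 17.4% and 55.2% of Ptprc cells (8.30% and 93.3%, 5.34% and 62.8%, 37.5% and 80.8% unthinned). No compartment is known to lack these genes. The cumulative curves per cell show the shift over the whole range.

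**Figure D4:**
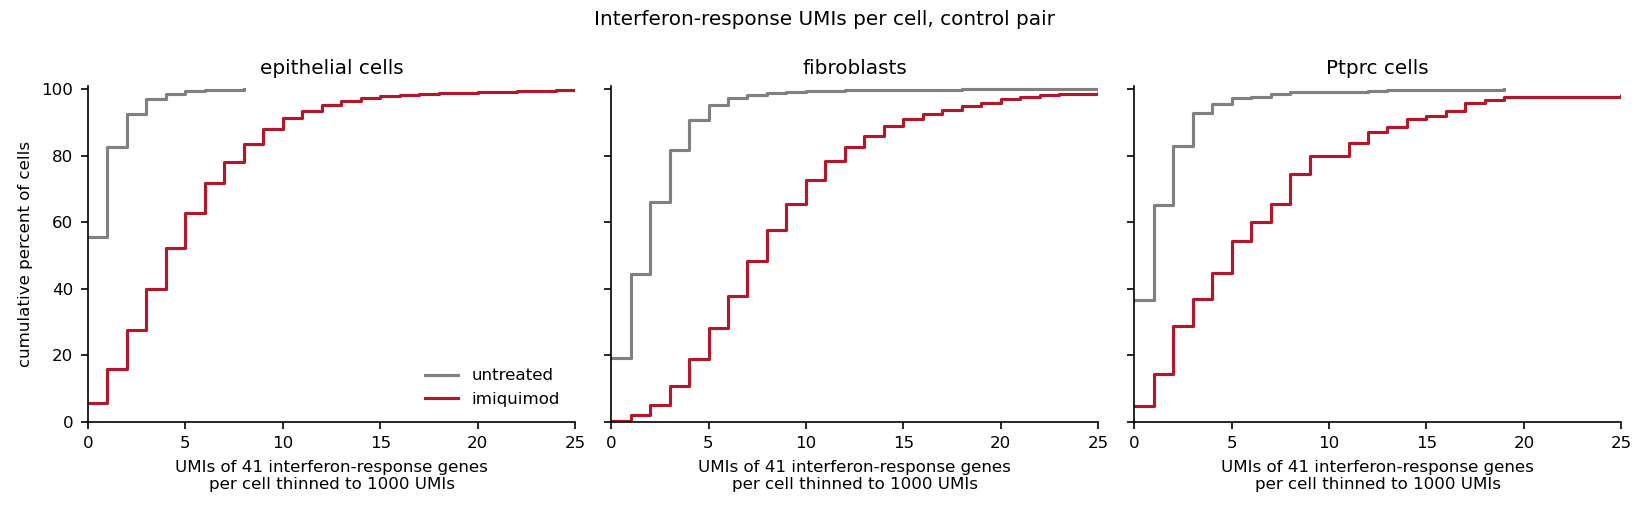
Cumulative percent of cells against the number of UMIs of 41 interferon-response genes per cell thinned to 1000 UMIs, for untreated (grey) and imiquimod (red) control cells in the 3 compartments. The imiquimod curves lie to the right, with medians of 4, 8 and 5 against 0, 2 and 1.

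The leading higher genes were also higher in the second pair of libraries. Ovol1, the gene named in its label, stood at 26.5 and 35.4 CPM in control and 38.7 and 90.1 CPM in labelled null epithelial cells. It was therefore not lower under that label, and since these are 3′ tags whose place relative to the deleted part is not given, they do not check the label. In that pair 10.3% of 11810 measured epithelial genes were at least 2-fold higher and 12.5% lower, 4.79% and 14.6% of 12046 in fibroblasts, and 8.69% and 4.83% of 5408 in Ptprc cells. All 12 leading higher genes of each compartment were measured there and at least 2-fold higher. Of the leading lower genes, 5 of 6 measured in epithelial cells, 9 of 12 in fibroblasts and 3 of 4 in Ptprc cells were at least 2-fold lower. Pycr1 stood at 27.2 and 2.03 CPM, Tppp3 at 429.9 and 95.3 CPM and Gal at 7.63 and 0.427 CPM in the labelled null fibroblasts. Crabp1 did not follow, at 73.2 and 83.7 CPM. Of genes at least 4-fold higher in the control pair and measured in both, 129 of 164 (78.7%) were at least 2-fold higher in the labelled null epithelial cells, 112 of 180 (62.2%) in fibroblasts and 45 of 61 (73.8%) in Ptprc cells. These are 14.8%, 23.3% and 13.7% of the genes 2-fold higher in that pair. At a 2-fold cut in the control pair the shares were lower, 58.3% of 463, 30.7% of 774 and 44.9% of 234 genes. Another 35, 107 and 17 of these genes were at least 2-fold lower in that pair. Of genes at least 2-fold lower in the control pair, 37.9% of 385, 47.7% of 1018 and 20.1% of 264 were so there. Over all genes measured in both, 7.98%, 4.09% and 6.69% were higher there and 12.7%, 14.5% and 5.11% lower. Larger values stood in that pair for epithelial S100a9 at 1.01 and 5291 CPM and for Saa3 in fibroblasts at 76.9 and 17084 CPM. Whether the 2 pairs differ was not tested.

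**Figure D5:**
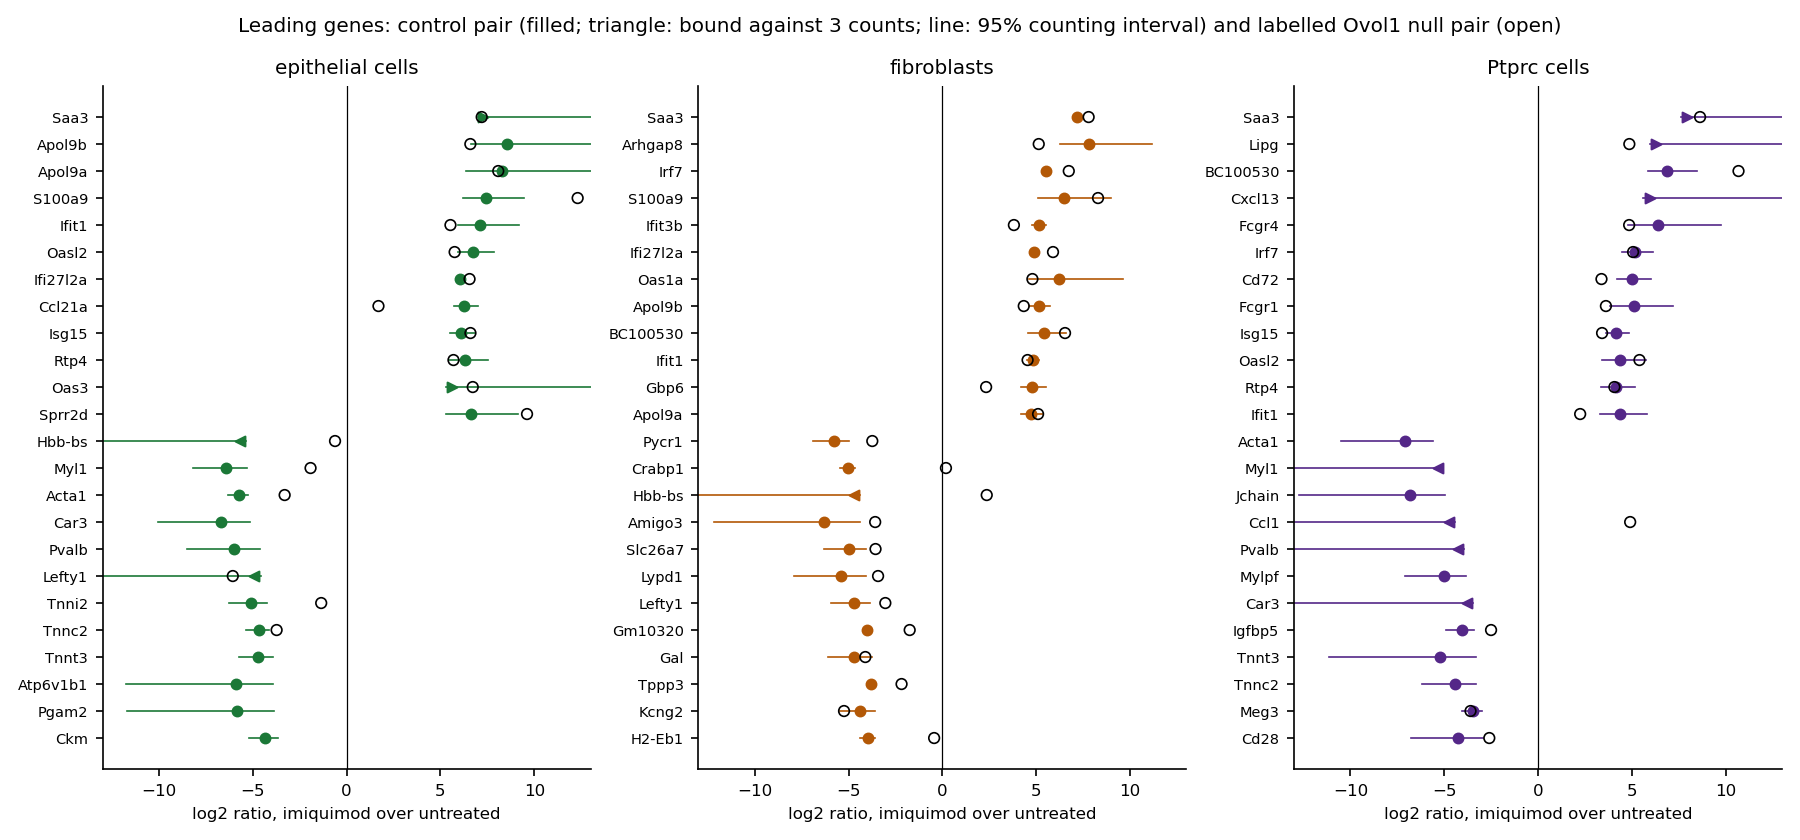
Log2 ratio of imiquimod over untreated for the 12 leading genes each way, for the control pair (filled, with 95% counting intervals, triangles for bounds against 3 counts) and the libraries labelled Ovol1 null (open circles, where measured with UMIs in both libraries). All open circles of the higher genes lie right of 0, while Hbb-bs and Crabp1 in fibroblasts and Ccl1 in Ptprc cells lie right of 0 among the lower genes.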

How the data were processed

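Single-cell RNA of 4 libraries was deposited as 1 matrix of UMI counts over 27998 genes. The deposited counts were made by the authors with Cell Ranger 2.1.0 on mm10, per the submitters' processing notes, and libraries were joined with a barcode suffix for each, per the labels; whether depth was equalised is not stated. Libraries were taken from that suffix. Barcodes under 200 genes or over 10% mitochondrial UMIs were dropped, which left 6186 untreated and 5670 imiquimod cells, and UMIs were summed per gene, library and compartment. Ratios have exact conditional binomial 95% intervals for counting error, zero counts a floor of 3 counts, and calls used 0.5 added counts and 2-fold. With 1 library per group no test was run. Doublets (1.91% and 1.52% called with Scrublet in scanpy 1.11.5) were kept in the values reported. edgeR 4.0.16 served only for TMM scaling as an alternative. The scripts were tested on simulated data.

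Named genes were the 12 leading each way in each compartment, ranked by the interval bound nearest 1, the leading members of each of 39 gene lists, and list members whose role is explained. Genes outside these, among them Ovol1, were named after their values were seen. Members and lists were chosen with earlier results of these data known. A few list members are not reported here.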

Additional observations from a re-analysis of the deposited data

Results flagged for a closer look

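Ccl1 in Ptprc cells went in opposite directions in the pairs. It had 250 and 0 UMIs in the control pair and was 44.8-fold higher under imiquimod in the libraries labelled Ovol1 null. Hbb-bs in fibroblasts had 172 and 0 UMIs in the control pair and was 5.17-fold higher under imiquimod in the libraries labelled Ovol1 null. Each value rests on 1 library per group, and the difference between the pairs was not tested.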

How the results depend on the processing

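No paired analysis was possible because each group is 1 library, and no library could be left out. In epithelial cells the count of genes at least 2-fold lower was 234 with TMM scaling, 232 with median-of-ratios scaling and 188 in Krt1 and Krt10 cells alone, against 400. Cells thinned to 1000 UMIs, with fewer genes measured, gave 239 higher and 144 lower genes in epithelial cells, 485 and 687 in fibroblasts, and 83 and 79 in Ptprc cells. A minimum of 200 UMIs per gene gave 243 and 132, 538 and 670, and 90 and 102, and a minimum of 1 UMI gave 1710 and 1954, 2538 and 2631, and 2128 and 1912. In Ptprc cells a stricter compartment margin gave 162 higher genes, and Cd3-type cells alone gave 97 higher and 218 lower. All other counts were within 1.5 times. No list median changed sign when called. Of the named genes past 2-fold, the log2 ratios that changed sign were Mki67 at 0.38 and Top2a at 0.021 in Krt1 and Krt10 epithelial cells, Cd72 at -1.35, Tnnt3 at 1.38 and Lyz2 at 1.20 in Cd3-type cells, and Tnnc2 at 0.23 in myeloid-type cells. Without muscle-bearing cells Tnnc2 in Ptprc cells stood at 2.25 and Mylpf at 0.12. The cause was not tested for these. Among named genes under 2-fold, Ivl, Krt17, Lor, Ifnar1 and Ovol1 in epithelial cells, H2-Aa and H2-Ab1 in fibroblasts and H2-Aa, Cd74 and Il17a in Ptprc cells changed sign under at least 1 alternative, Krt17 and Ivl already under TMM scaling at 0.096 and 0.15.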
